A study of Mus musculus with 24 samples.

Results

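The response of control bone marrow-derived macrophages to low oxygen was described in total poly(A) RNA, in 6 of the 24 libraries of the series. The members are all genes with at least 1 TPM in 3 of these 6 libraries, which kept 11710 of 52636 genes. TPM, a unit of transcript abundance, gives the share that a gene takes of the transcripts in its library, corrected for gene length. The 6 libraries were taken to come from 3 mice, called HET-97, HET-102 and HET-129 after the number in their labels. Each had a normoxic and a hypoxic culture, and every difference below was taken within a mouse.

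The control mice carried Csf1r-iCre and 1 floxed and 1 intact copy of Elavl1 (genotype Csf1r-iCre.HuR+/fl), so the Cre and a floxed allele were present in the controls too. They also expressed ribosomal protein L10a fused to EGFP. Csf1r-iCre is a Cre recombinase under the promoter of the macrophage growth factor receptor gene, which is active in macrophages and their precursors. The mice were 8 to 12 weeks old, and marrow cells were grown for 6 days with L cell conditioned medium, a source of the growth factor CSF1. Separate plates were then kept for 18 h at 20% oxygen (normoxia) or 1% oxygen (hypoxia). Beside these libraries, 2 other readouts are used: total RNA of 3 mice labelled as knockouts (Csf1r-iCre.HuRfl/fl, KO-176, KO-281 and KO-301), and ribosome-bound RNA of the same control lysates, captured by way of the tagged L10a (translating ribosome affinity purification, TRAP).

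Cells sense oxygen through prolyl hydroxylases of the EGLN family, which use oxygen to mark the alpha subunits of hypoxia-inducible factors (HIF) for destruction by the VHL ubiquitin ligase. When oxygen is scarce the alpha subunits persist, pair with ARNT and bind DNA at short elements with the core ACGTG or GCGTG. Known HIF targets raise glucose uptake and glycolysis, divert pyruvate from the mitochondria and remove mitochondria, and in macrophages they include the arginine-degrading enzyme arginase 1.

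The 14 macrophage markers on the list were each at 1 TPM or more in all 6 libraries, and together they made up 31496 to 35881 TPM. Markers of other cells were low, with summed levels of 6.36 to 38.9 TPM for 10 neutrophil genes, 8.37 to 55.2 for 7 B cell genes, 3.56 to 32.1 for 10 stromal and endothelial genes, 1.3 to 3.63 for 9 T and NK cell genes, 0.0992 to 2.12 for 9 dendritic cell genes, 0 to 0.459 for 7 erythroid genes and 0.0603 to 0.496 for 6 mast cell and basophil genes. The defining genes Cd3e, Ly6g, Camp, Elane, Xcr1, Hbb-bs and Cpa3 were listed at 0 in all 6. Other neutrophil genes were detected, with S100a8 at 5.84 to 18.55 TPM, S100a9 at 0 to 13.27 and Prtn3 at 0.355 to 4.35. The 3 neutrophil genes that passed the filter were each higher in hypoxia in 3 of 3 mice, beside 16.3% of all genes. The neutrophil sum was higher in the hypoxic library of each mouse (8.85 against 13.7, 6.36 against 10.1 and 25.5 against 38.9 TPM), and its part in the results was not tested. Mouse HET-129 stood apart from the others. Log2 levels of mice HET-97 and HET-102 correlated across genes at 0.964 in normoxia and 0.968 in hypoxia, and those of HET-129 with either at 0.925 to 0.941. The scavenger receptor gene Marco was at 205 TPM in normoxic HET-129 and at 4.38 and 14.5 TPM in the other two. The interferon-induced gene Isg15 was at 638 TPM there against 53.6 and 43.6 TPM. Whether the calls held without HET-129 is given below for that reason. List medians and gene differences are given there as ranges over each mouse left out.

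Hypoxia raised Arg1, Pgk1 and Bnip3 and lowered Tfrc and Tnf. These 5 were the calls at an adjusted p under 0.05 (limma with a mean-variance trend on log2(TPM + 1), the mouse as a block, Benjamini-Hochberg adjustment over all genes, two-sided), and made up 0.0256% (3 higher) and 0.0171% (2 lower) of the 11710 genes tested. Differences are given as log2 of hypoxia over normoxia on the log2(TPM + 1) scale with SE, which understates changes of low genes. Without the mouse block the same fit made 0 calls, with 118 genes higher and 178 lower at an unadjusted p under 0.05. With the block 592 genes (5.06%) were higher and 1000 (8.54%) lower at that level. This split turned to 825 higher and 785 lower after quantile normalization and to 832 and 722 after median-of-ratios rescaling. Leaving out any 1 of the control mice ended all 5 calls, with adjusted p of 0.0559 to 0.284, so they rest on all 3 mice together. Fitted on the 6 control libraries alone, Tfrc was still called (limma adjusted p 0.0287), while Arg1 (0.0574), Pgk1, Tnf and Bnip3 (0.0771 for each) were not.

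Arg1 encodes arginase 1, which splits arginine into ornithine and urea. The gene (ENSMUSG00000019987.9, chr10:24915221-24927484, minus strand, GRCm38) was at 20.1, 6.96 and 17.6 TPM at 20% oxygen and 185, 44.3 and 116 TPM at 1% oxygen in HET-97, HET-102 and HET-129 in turn, the order used for all values below. The lowest hypoxic library was above the highest normoxic one, although HET-102 had less of the transcript than the other mice under both conditions. The means were 14.9 ± 6.99 and 114.9 ± 70.1 TPM (SD, n = 3), and the log2 difference was 2.76 ± 0.16 (SE, limma adjusted p 0.0083).

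Tfrc encodes the transferrin receptor, through which cells take up iron. The gene (ENSMUSG00000022797.15, chr16:32608920-32632794, plus strand) was at 86.9, 39.9 and 57.6 TPM at 20% oxygen and 20.3, 9.54 and 13.2 TPM at 1% oxygen. Each mouse lost a similar share, with log2 differences of -2.05, -1.96 and -2.04, and no hypoxic library reached a normoxic one. The fitted difference was -2.01 ± 0.13 (limma adjusted p 0.0083).

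Pgk1 encodes phosphoglycerate kinase, the first enzyme of glycolysis to yield ATP. The gene (ENSMUSG00000062070.12, chrX:106187100-106203699, plus strand) was at 921, 765 and 635 TPM at 20% oxygen and 1617, 1368 and 1145 TPM at 1% oxygen. The groups did not overlap, and the log2 differences of the mice lay between 0.81 and 0.85. The fitted difference was 0.83 ± 0.06 (limma adjusted p 0.00882). Processed pseudogenes of Pgk1 are known, and how the deposited TPM treats reads shared with them was not given and not tested. Bnip3 encodes a receptor on the outer mitochondrial membrane that recruits the autophagy machinery. It (ENSMUSG00000078566.8, chr7:138890836-138909519, minus strand) was at 81.5, 79.6 and 97.3 TPM at 20% oxygen and 190.2, 169.7 and 243 TPM at 1% oxygen, again without overlap, for a difference of 1.20 ± 0.11 (limma adjusted p 0.0389). Pgk1 and Bnip3 lost their calls in limma with no trend (adjusted p 0.0847 for each). Bnip3 lost its call also after median-of-ratios rescaling (adjusted p 0.0623), without a filter on low values (0.134) and without mouse KO-301 (0.0852).

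Tnf encodes tumour necrosis factor, the inflammatory cytokine. The gene (ENSMUSG00000024401.14, chr17:35199381-35202007, minus strand) was at 45.3, 48.8 and 112 TPM at 20% oxygen and 20.5, 21.3 and 47.8 TPM at 1% oxygen. Hypoxic HET-129 was within the range of the normoxic libraries, since this mouse had more Tnf under both conditions, so the groups overlapped while each mouse fell by about the same share (-1.11, -1.16 and -1.21 on the log2 scale). The fitted difference was -1.16 ± 0.08 (limma adjusted p 0.00915).

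**Figure D1:**
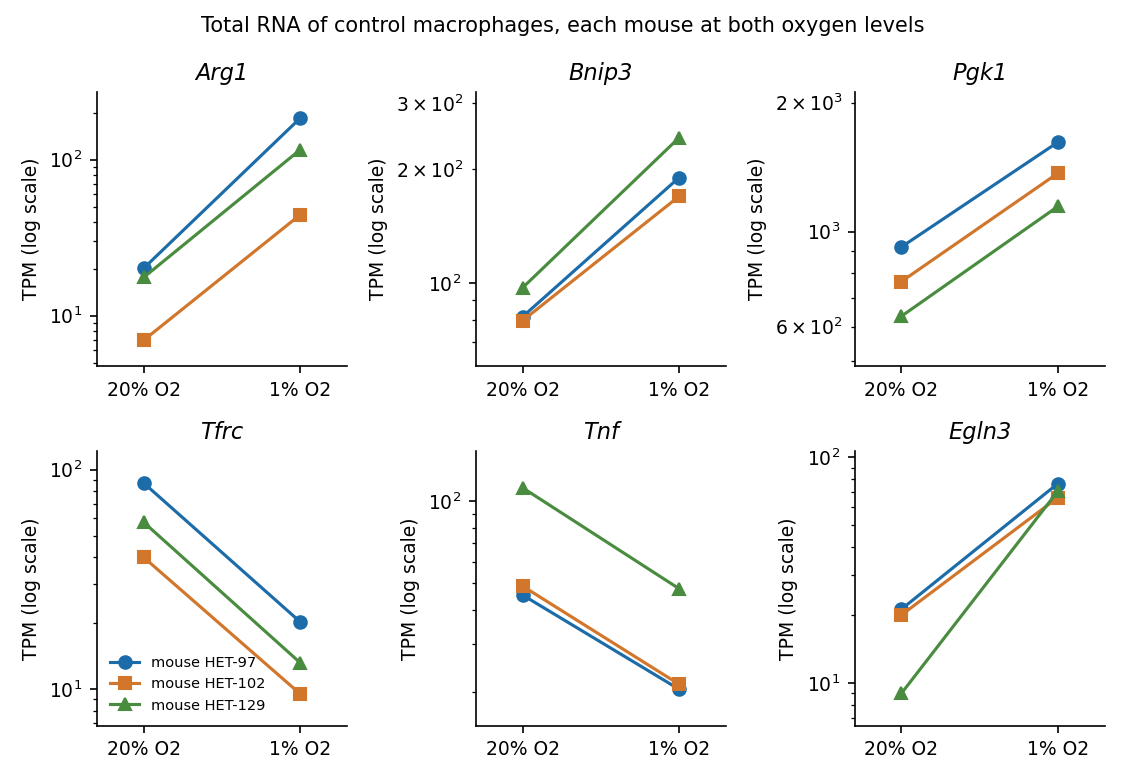
Levels in TPM (log scale) of the 5 called genes and of Egln3 in total RNA of control macrophages at 20% and 1% oxygen, with a line for each mouse. Lines of a gene run nearly parallel for the called genes, while the mice start from different levels, such as 6.96 to 20.1 TPM for Arg1.

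**Figure D2:**
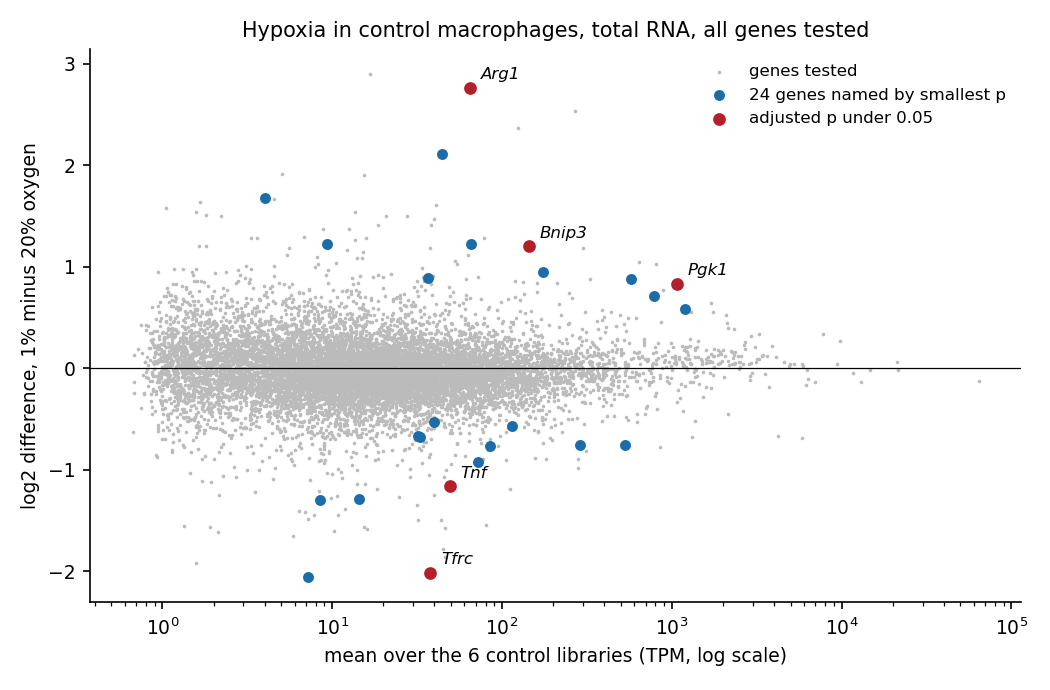
Fitted log2 difference (1% minus 20% oxygen) against the mean level over the 6 control libraries (TPM, log scale) for the 11710 genes tested. The 5 called genes are red and the 24 genes with the smallest p among those without overlap between groups are blue (called genes that are among the 24 are drawn in red). Most genes lie near the median of -0.0318.

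Of all genes 361 (3.08%) were higher in hypoxia without overlap between the groups and 687 (5.87%) lower. In 3 of 3 mice 1908 (16.3%) were higher and 2771 (23.7%) lower. Across genes the log2 differences of the mice correlated with each other at 0.113 to 0.176, a description over genes that are not independent. At an adjusted p under 0.1 there were 19 genes higher and 21 lower. None of the genes described from here on, apart from the 5 above, passed the threshold, so their values are given without a call.

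The promoters of 4 of the called genes, and of Egln3, are shown with the HIF core element marked where it occurs. The Tnf window held none. Each run is the 250 bases before the RefSeq start on GRCm38.p6, written 5′ to 3′ on the gene's strand, and capitals mark ACGTG or GCGTG on either strand (CACGT and CACGC read on the other strand, and matches may overlap). Arg1 is named only.
Pgk1, chrX:106186850-106187099, plus strand: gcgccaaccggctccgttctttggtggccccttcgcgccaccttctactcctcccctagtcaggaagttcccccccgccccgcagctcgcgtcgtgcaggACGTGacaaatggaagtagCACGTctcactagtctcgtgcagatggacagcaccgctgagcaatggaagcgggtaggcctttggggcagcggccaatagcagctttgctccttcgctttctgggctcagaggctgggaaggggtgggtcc
Bnip3, chr7:138909507-138909756, minus strand: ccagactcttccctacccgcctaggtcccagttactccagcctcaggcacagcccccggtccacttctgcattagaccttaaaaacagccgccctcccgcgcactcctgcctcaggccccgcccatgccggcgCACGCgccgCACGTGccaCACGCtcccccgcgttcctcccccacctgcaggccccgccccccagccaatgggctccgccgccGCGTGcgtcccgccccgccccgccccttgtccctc
Egln3, chr12:54203875-54204124, minus strand: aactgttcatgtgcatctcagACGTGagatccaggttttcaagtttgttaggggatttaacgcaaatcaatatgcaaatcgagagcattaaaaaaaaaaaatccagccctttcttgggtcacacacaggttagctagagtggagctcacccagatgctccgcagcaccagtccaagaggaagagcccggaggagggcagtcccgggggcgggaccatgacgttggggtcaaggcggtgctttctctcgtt
Tfrc, chr16:32608646-32608895, plus strand: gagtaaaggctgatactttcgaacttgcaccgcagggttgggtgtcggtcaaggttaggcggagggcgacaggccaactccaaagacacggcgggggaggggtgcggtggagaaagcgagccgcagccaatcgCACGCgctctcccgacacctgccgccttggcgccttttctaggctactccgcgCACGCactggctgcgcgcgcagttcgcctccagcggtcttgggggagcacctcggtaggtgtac
Tnf, chr17:35202008-35202257, minus strand: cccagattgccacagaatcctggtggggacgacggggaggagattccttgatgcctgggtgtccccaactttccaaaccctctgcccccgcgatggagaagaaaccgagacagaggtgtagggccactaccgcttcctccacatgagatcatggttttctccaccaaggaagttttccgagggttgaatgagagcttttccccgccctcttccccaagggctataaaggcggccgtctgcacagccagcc

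Pgk1 held 2 matches, Bnip3 5 of which overlapping ones join, Egln3 1, Tfrc 2 and Tnf 0. The element is common: of 8657 windows of tested genes, 58.0% held at least 1 match. Of the 12 genes with the smallest p that were higher, 11 had a window and 6 of those held a match, beside 7 of 12 for the 12 lower genes. A match was found in 18 of 24 windows for glycolysis (75.0%), 17 of 23 for other HIF-responsive genes (73.9%), 15 of 21 for immediate early genes (71.4%) and 16 of 23 for the integrated stress response (69.6%). The letters are a description of the window and not evidence of binding.

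Oxygen sensing genes went in both directions, with 7 of 14 fitted higher in hypoxia and 7 lower. Egln3, a prolyl hydroxylase that is itself a known HIF target, was at 21.2, 20 and 8.98 TPM at 20% oxygen and 76.6, 66.4 and 70.9 TPM at 1% oxygen. All hypoxic libraries were above all normoxic ones, and the 3 hypoxic values lay close together although HET-129 started lower. The difference was 2.11 ± 0.29, adjusted p 0.0812, in limma as throughout. Egln1, the main hydroxylase of HIF alpha, was at 57.7, 53.3 and 38.6 TPM at 20% oxygen and 92.8, 77.2 and 71.4 TPM at 1% oxygen (0.69 ± 0.12, adjusted p 0.12). Vhl was higher in 3 of 3 mice (0.35 ± 0.15, adjusted p 0.386), as was the partner subunit gene Arnt (0.60 ± 0.25, adjusted p 0.363). The alpha subunit genes lay on the other side, each lower in 3 of 3 mice. Hif1a was at -0.29 ± 0.10, adjusted p 0.288 and Epas1 at -0.51 ± 0.19, adjusted p 0.321. Some of these directions turned in the other readouts. Arnt was at -0.23 ± 0.25 and Hif1a at 0.03 ± 0.10 in labelled knockouts. Vhl was at -0.45 ± 0.23 and Hif1a at 0.04 ± 0.20 in TRAP RNA. Egln3 and Egln1 were higher in both, Arnt higher in TRAP RNA and Vhl in labelled knockouts. Epas1 was lower in labelled knockouts. Over the list, 5 of 14 tested genes were higher and 3 lower in 3 of 3 mice, beside 16.3% and 23.7% of all genes. The median was -0.0136 beside -0.0318 over all genes.

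Glycolysis had a median of 0.585 over 25 tested genes (0.369, 0.503 and 0.807 in the 3 mice), beside -0.0318 over all genes, and of the lists only the 3 tested neutrophil markers had a higher one (0.808). Of the 25 genes 1, Pgk1, passed the test. In 3 of 3 mice 18 were higher and 1 lower, beside 16.3% and 23.7% of all genes. Higher without overlap were 12, beside 3.08% of all genes. The summed level of the list was 6063 to 7283 TPM in normoxia and 10221 to 11286 TPM in hypoxia. The median ran from 0.500 to 0.651 over all alternatives.

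At the entry to the pathway, the glucose transporter gene Slc2a1 was at 59.1, 54.9 and 57.1 TPM at 20% oxygen and 89, 61.8 and 80.2 TPM at 1% oxygen (0.41 ± 0.14, adjusted p 0.299). Hk2, which phosphorylates glucose, was at 0.42 ± 0.09, adjusted p 0.178, and the myeloid hexokinase gene Hk3 was the member lower in 3 of 3 mice (-0.11 ± 0.07, adjusted p 0.505). Gpi1, the isomerase of the next step, was at 543, 740.0 and 336 TPM at 20% oxygen and 1233, 1198 and 785 TPM at 1% oxygen (1.03 ± 0.27, adjusted p 0.219). Phosphofructokinase genes were mixed, with the liver type Pfkl at 0.62 ± 0.17, adjusted p 0.238 and the platelet type Pfkp at 0.003 ± 0.14, adjusted p 0.995. Pfkfb3, which makes the activator of phosphofructokinase, spread widely, from 3.87 to 39.1 TPM in HET-129 and from 13.5 to 11.7 TPM in HET-102.

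From aldolase on, most enzymes were higher in each mouse. Aldoa was at 0.64 ± 0.18, adjusted p 0.229, Tpi1 at 0.78 ± 0.16, adjusted p 0.171 and Pgam1 at 0.76 ± 0.11, adjusted p 0.0812. Eno1, the main enolase, was at 529, 363 and 327 TPM at 20% oxygen and 886, 696 and 641 TPM at 1% oxygen (0.88 ± 0.10, adjusted p 0.0625), while the neuronal enolase gene Eno2 was at -0.19 ± 0.27, adjusted p 0.793. Pkm, pyruvate kinase, was at 871, 939.8 and 1064 TPM at 20% oxygen and 1304, 1451 and 1559 TPM at 1% oxygen (0.59 ± 0.07, adjusted p 0.0625), without overlap. Gapdh was lower in level than Tpi1 and Pgk1, its neighbours in the pathway, at 242, 119 and 106 TPM at 20% oxygen and 303, 266 and 220.2 TPM at 1% oxygen, and its groups overlapped (0.84 ± 0.29, adjusted p 0.293). Gapdh, Eno1 and Pgam1 also have known processed pseudogenes, whose part in these levels was not tested.

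At the exit, lactate dehydrogenase A (Ldha) was at 1158, 844 and 1162 TPM at 20% oxygen and 1496, 1541 and 1570.1 TPM at 1% oxygen, with hypoxic values close together (0.56 ± 0.14, adjusted p 0.216). The lactate exporter gene Slc16a3 was at 88.4, 83.5 and 74.8 TPM at 20% oxygen and 110.5, 152 and 202 TPM at 1% oxygen, higher in each mouse (0.86 ± 0.26, adjusted p 0.254). Pdk1, the kinase that keeps pyruvate out of the mitochondria, was at 0.65 ± 0.24, adjusted p 0.318. Genes of the tricarboxylic acid cycle had a median of -0.0694, and a list of 37 respiratory chain genes one of -0.0224. Mitochondrially encoded messenger RNAs, a separate list, had a median of -0.235 over 11 tested genes (-0.244, -0.233 and -0.568 by mouse). Of these, 5 were lower and 0 higher in 3 of 3 mice, beside 23.7% and 16.3% of all genes, and none passed.

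**Figure D3:**
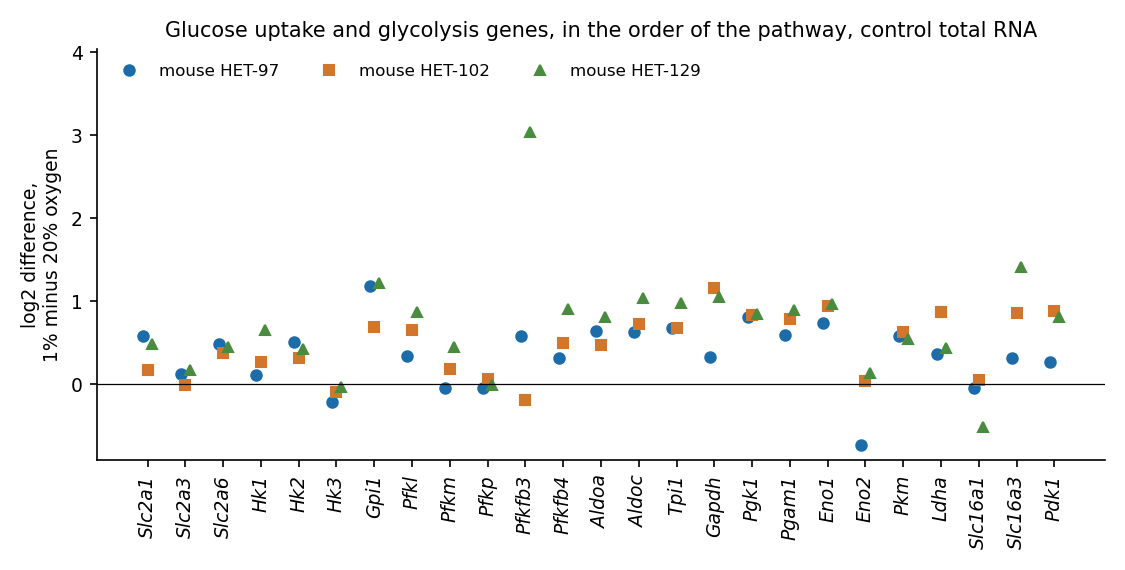
Log2 difference (1% minus 20% oxygen) of each of the 25 glucose uptake and glycolysis genes in each control mouse, in pathway order. Points of the 3 mice lie above 0 for 18 genes, and Pfkfb3 in HET-129 lies far above the rest.

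Among 32 other HIF-responsive genes, 23 were higher and 1 lower in 3 of 3 mice, beside 16.3% and 23.7% of all genes. Higher without overlap were 13, beside 3.08% of all genes. The median was 0.433 (0.451, 0.299 and 0.684 by mouse). Bnip3 was the member that passed. Ankrd37, an ankyrin repeat protein gene, was at 29.4, 17.7 and 13.4 TPM at 20% oxygen and 67.2, 67.7 and 48.6 TPM at 1% oxygen (1.61 ± 0.25, adjusted p 0.109). Ak4, a mitochondrial adenylate kinase, was at 1.37 ± 0.21, adjusted p 0.109, and Fam162a, a mitochondrial protein induced by HIF, at 0.95 ± 0.11, adjusted p 0.0625. Mif, macrophage migration inhibitory factor, was at 557, 668 and 559.6 TPM at 20% oxygen and 917, 1055 and 944 TPM at 1% oxygen, without overlap (0.71 ± 0.10, adjusted p 0.083). The exception was Vegfa, the angiogenic growth factor usually counted among these targets, at 197, 152 and 159 TPM at 20% oxygen and 141, 106 and 100.2 TPM at 1% oxygen. All hypoxic values of Vegfa were below all normoxic ones (-0.55 ± 0.12, adjusted p 0.172). Outside the list, Mgarp, a mitochondrial transport protein gene, was at 1.78, 1.65 and 0.797 TPM at 20% oxygen and 8.52, 5.51 and 6.01 TPM at 1% oxygen (1.68 ± 0.21, adjusted p 0.0625).

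Arg1 was the single call in its list. Of 15 tested genes of arginine use and alternative activation, 3 were higher and 3 lower in 3 of 3 mice. Over all genes these shares were 16.3% and 23.7%. The median of the list was 0.0388. The mannose receptor gene Mrc1 was at 549, 331 and 274 TPM at 20% oxygen and 557, 342 and 271 TPM at 1% oxygen (0.02 ± 0.06, adjusted p 0.918), and Odc1, which turns ornithine into polyamine precursors, at -0.05 ± 0.12, adjusted p 0.877. The lectin gene Mgl2 was at 6.71, 4.37 and 0.439 TPM at 20% oxygen and 11.2, 9.18 and 1.56 TPM at 1% oxygen, low in HET-129 and higher in hypoxia in each mouse (0.80 ± 0.13, adjusted p 0.109). The factor XIII subunit gene F13a1, a marker of alternatively activated macrophages, was at 1.22 ± 0.16, adjusted p 0.0743 without overlap.

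Tfrc was likewise the single call among 19 iron genes (median -0.105). Of these, 3 were higher and 10 lower in 3 of 3 mice, beside 16.3% and 23.7% of all genes. The exporter gene Slc40a1 (ferroportin) was at 120.2, 114 and 101 TPM at 20% oxygen and 71.4, 82.6 and 90.9 TPM at 1% oxygen (-0.45 ± 0.12, adjusted p 0.219). The ferritin genes Fth1 and Ftl1, among the most abundant transcripts, were at -0.13 ± 0.11, adjusted p 0.636 and -0.13 ± 0.12, adjusted p 0.666. Cd163, the receptor for haemoglobin bound to haptoglobin, was on the higher side at 2.31, 1.76 and 1.1 TPM at 20% oxygen and 5.73, 4.65 and 3.1 TPM at 1% oxygen (1.01 ± 0.17, adjusted p 0.119).

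The integrated stress response had a median of -0.333 over 27 genes. In 3 of 3 mice 20 were lower and 1 higher, beside 23.7% and 16.3% of all genes. Lower without overlap were 11, beside 5.87% of all genes. No member passed. Atf4, its central transcription factor, was at 502, 676 and 819.8 TPM at 20% oxygen and 310.5, 454 and 411 TPM at 1% oxygen, with all hypoxic libraries below all normoxic ones (-0.75 ± 0.10, adjusted p 0.0743). Asns, asparagine synthetase and an ATF4 target, was at -0.80 ± 0.18, adjusted p 0.191, Trib3 at -0.59 ± 0.20, adjusted p 0.295, Chac1 at -1.41 ± 0.33, adjusted p 0.197 and Atf5 at -0.90 ± 0.16, adjusted p 0.144. The stress cytokine gene Gdf15 was at -0.92 ± 0.11, adjusted p 0.0625. Chaperones of the endoplasmic reticulum lay nearer to the rest of the genes, with a median of -0.12 over 20.

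Immediate early genes had the lowest median, -0.534 over 26 genes (-0.721, -0.542 and -0.429 by mouse), and no call. In 3 of 3 mice 16 were lower and 0 higher, beside 23.7% and 16.3% of all genes. Plk3, a stress-activated kinase gene, was at 9.15, 10.8 and 17 TPM at 20% oxygen and 2.6, 3.95 and 7.24 TPM at 1% oxygen (-1.29 ± 0.16, adjusted p 0.0625), and Myc at 43.3, 34.7 and 37.1 TPM at 20% oxygen and 27.9, 24.1 and 19.8 TPM at 1% oxygen (-0.67 ± 0.11, adjusted p 0.109). Id1, an inhibitor of helix-loop-helix factors, was at -1.27 ± 0.14, adjusted p 0.0625. Fos, at 1032, 762 and 796 TPM at 20% oxygen and 614, 574 and 1012 TPM at 1% oxygen, was lower in hypoxia in HET-97 and HET-102 and higher in HET-129. Egr1 was lower in HET-97 and higher in the other two (0.15 ± 0.35, adjusted p 0.876). Of 15 NF-kB subunits and feedback inhibitors 7 were lower and 0 higher in 3 of 3 mice (median -0.255), with the inhibitor gene Nfkbia at -0.62 ± 0.12, adjusted p 0.158.

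Tnf was the call among 23 cytokine and chemokine genes. Of these, 9 were lower and 5 higher in 3 of 3 mice, beside 23.7% and 16.3% of all genes. The neutrophil attractant Cxcl2 was at 56.9, 82.2 and 275 TPM at 20% oxygen and 16.6, 30.3 and 205 TPM at 1% oxygen (-1.18 ± 0.26, adjusted p 0.179), Ccl4 at -0.82 ± 0.13, adjusted p 0.109 and Il1b at -0.79 ± 0.35, adjusted p 0.387. Pf4, a platelet chemokine also made by macrophages, was on the higher side at 1451, 1285 and 1482 TPM at 20% oxygen and 2166, 1678 and 2424 TPM at 1% oxygen (0.56 ± 0.09, adjusted p 0.109). Antigen presentation by MHC class II gave a median of 0.504, with 8 of 9 tested genes higher in 3 of 3 mice, beside 16.3% of all genes. Only 1 of the 9 was higher without overlap, beside 3.08% of all genes, and none passed. Cd74, the invariant chain, was at 82.2, 59.4 and 104 TPM at 20% oxygen and 112, 92.8 and 205 TPM at 1% oxygen (0.68 ± 0.11, adjusted p 0.109). Dendritic cell markers, which could carry such genes, summed to at most 2.12 TPM and B cell markers to 8.37 to 55.2 TPM. The B cell markers did not move together. Cd79b, a subunit of the B cell receptor, was higher in hypoxia in 3 of 3 mice (0.84 ± 0.37, adjusted p 0.386). It was at 3.41, 2.79 and 3.78 TPM at 20% oxygen and 7.52, 3.89 and 9.91 TPM at 1% oxygen, without overlap. Ighm was lower in hypoxia in HET-97 and HET-102 and nearly level in HET-129. Its values were 50, 52.1 and 4.15 TPM at 20% oxygen and 42.6, 42.8 and 4.35 TPM at 1% oxygen. Cd79a, Ms4a1 and Pax5 were listed at 0 in all 6 libraries. The part of B cells in these values was not tested. In this bulk RNA, fewer cells of a type and less RNA per cell cannot be told apart.

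Other lists lay below the median of all genes: cholesterol synthesis and uptake at -0.311 (12 of 22 lower in 3 of 3 mice) and interferon-stimulated genes at -0.221 (11 of 23). Over all genes 23.7% were lower in 3 of 3 mice. DNA replication and mitosis genes differed between mice, with medians of -0.268, 0.29 and -0.701. In lists chosen after the values were seen, 47 of 62 nucleolar ribosome biogenesis factors and 26 of 45 splicing factors were lower in 3 of 3 mice, with medians of -0.293 and -0.307. Examples are the nucleolar genes Gnl3 (-0.67 ± 0.10, adjusted p 0.0953) and Mphosph10 (-0.67 ± 0.08, adjusted p 0.0625) and the splicing regulators Tra2b (-0.77 ± 0.10, adjusted p 0.0625) and Sfpq (-0.57 ± 0.08, adjusted p 0.0812). Of 16 glycogen genes, also listed after the values were seen, 6 were higher and 3 lower in 3 of 3 mice (median -0.0292). Glycogen synthase Gys1 was at 17.1, 12.4 and 11 TPM at 20% oxygen and 32.4, 21.4 and 24.5 TPM at 1% oxygen (0.90 ± 0.14, adjusted p 0.109). Gbe1, the branching enzyme, was near 0 at -0.011 ± 0.11, adjusted p 0.977.

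**Figure D4:**
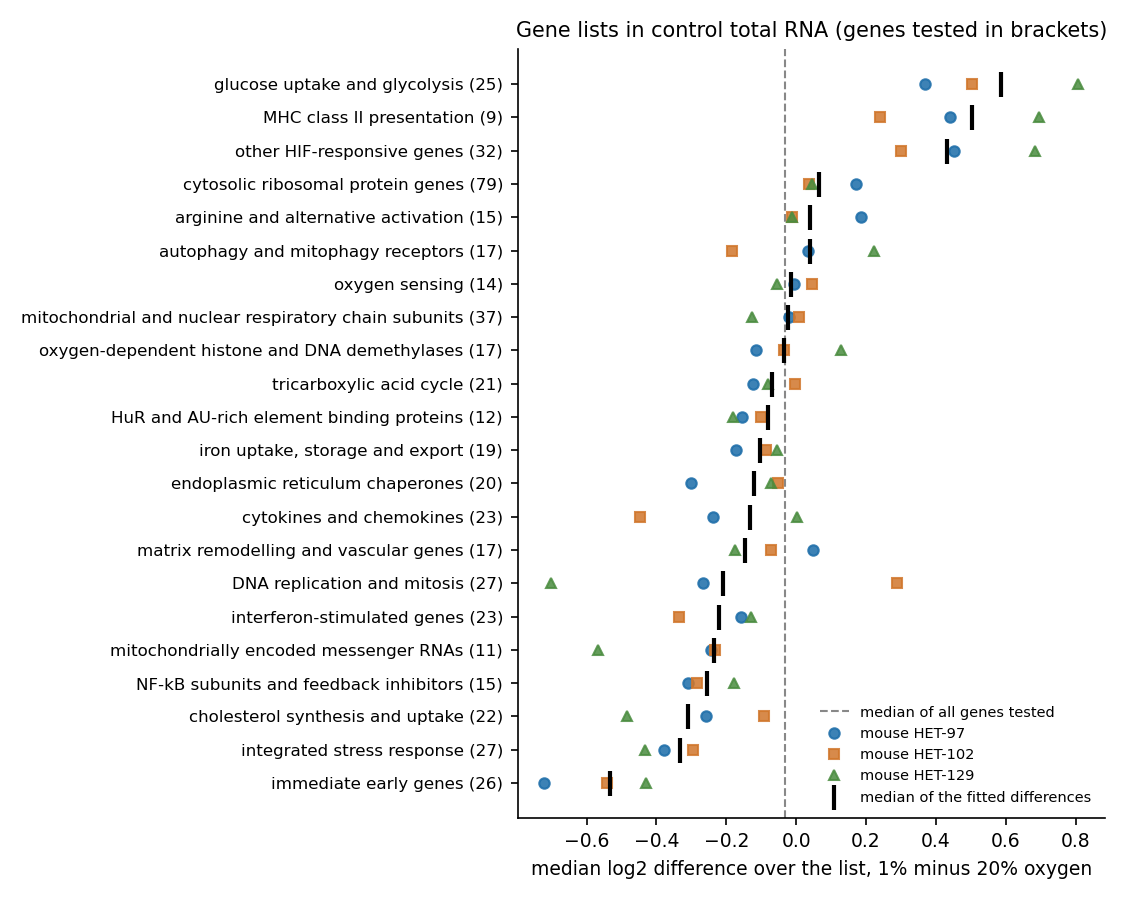
Median log2 difference (1% minus 20% oxygen) over the tested genes of each list, for each control mouse and for the fitted differences, with the dashed line at the median of all genes tested. Glycolysis, MHC class II and the other HIF-responsive genes lie to the right in 3 of 3 mice, and immediate early and integrated stress response genes to the left.

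Elavl1, the gene floxed in these mice, was at 29.9, 30.8 and 35.7 TPM at 20% oxygen and 21.2, 59.8 and 24.9 TPM at 1% oxygen in the controls. HET-102 alone was higher in hypoxia, and the difference was -0.01 ± 0.28 (limma adjusted p 0.989).

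The hypoxic change in controls was compared with that in the labelled knockouts by an interaction term. No gene passed (0 of 11710, 0%), with 544 at an unadjusted p under 0.05 and a smallest adjusted p of 0.0653, that of Pum2, which encodes a repressor of messenger RNAs. Of the 5 called genes, Arg1 was at 2.76 in controls and 1.64 ± 0.16 in labelled knockouts (adjusted p of the difference 0.960), Tfrc at -2.01 and -1.75 ± 0.13 (0.960) and Tnf at -1.16 and -0.79 ± 0.08 (0.960). Pgk1 was at 0.66 ± 0.06 and Bnip3 at 0.74 ± 0.11 in the labelled knockouts. The glycolysis median was 0.581 there, beside 0.585 in controls, and that of immediate early genes -0.301 beside -0.534. Other HIF-responsive genes were at 0.404 beside 0.433 in controls, the integrated stress response at -0.305 beside -0.333 and MHC class II at 0.337 beside 0.504. Some list medians did not carry over. Cholesterol synthesis and uptake was at 0.0942 beside -0.311 in controls, and interferon-stimulated genes at -0.0295 beside -0.221. The median over all genes was 0.00602 in the labelled knockouts.

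In TRAP RNA of the same control lysates 0 of 10751 genes (0%) passed, with 894 at an unadjusted p under 0.05 and a smallest adjusted p of 0.188. The median SE of a difference was 0.236 in TRAP RNA and 0.149 in total RNA. Arg1 was at 2.71 ± 0.38 (adjusted p 0.266), Tfrc at -1.30 ± 0.40 (0.530), Pgk1 at 0.96 ± 0.11 (0.188), Tnf at -1.07 ± 0.21 (0.291) and Bnip3 at 1.38 ± 0.20 (0.266). The test of TRAP minus total change called 0 of 10751 genes (0%), with 432 at an unadjusted p under 0.05 and a smallest adjusted p of 0.811. List medians in TRAP RNA were 0.582 for glycolysis and -0.476 for immediate early genes. Those of cholesterol synthesis and uptake (-0.0276) and interferon-stimulated genes (-0.0406) lay near 0, beside 0.0449 over all genes. TRAP and total RNA share their lysates and are therefore not independent.

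Of the 24 named genes 3 did not keep the direction of their fitted difference in these readouts. Spr, sepiapterin reductase of tetrahydrobiopterin synthesis, was at 22.8, 21.9 and 17.6 TPM at 20% oxygen and 6.71, 11 and 6.6 TPM at 1% oxygen in control total RNA, but at 25.8, 28 and 13.7 TPM at 20% oxygen and 26.5, 34.3 and 29.2 TPM at 1% oxygen in TRAP RNA of the same lysates. Bcl2l2, which encodes the survival protein BCL-w, was at 16.4, 5.44 and 15.2 TPM at 20% oxygen and 2.81, 1.34 and 1.82 TPM at 1% oxygen, and in TRAP RNA at 1.89, 6.25 and 6.26 TPM at 20% oxygen and 2.21, 8.53 and 5.99 TPM at 1% oxygen. Derl2, of endoplasmic reticulum protein disposal, was at 21.6, 34.2 and 19.4 TPM at 20% oxygen and 36.6, 67.6 and 39.1 TPM at 1% oxygen (0.89 ± 0.10, adjusted p 0.0625). It was at -0.13 ± 0.10 in labelled knockouts and -0.09 ± 0.47 in TRAP RNA. The control mice differed in TRAP RNA, with log2 differences of -1.62, -0.016 and 1.36, so that value shows no common direction.

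**Figure D5:**
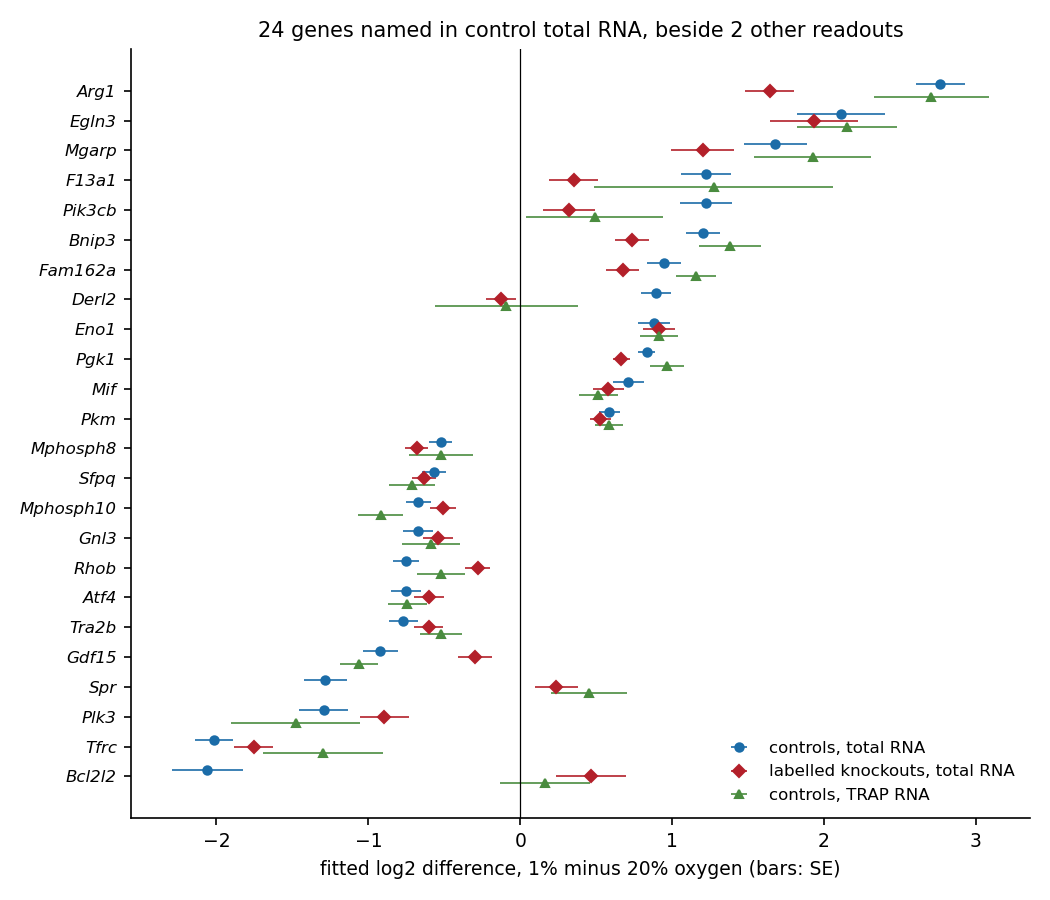
Fitted log2 difference with SE (1% minus 20% oxygen) of the 24 genes with the smallest p among those without overlap, in control total RNA, in total RNA of the labelled knockouts and in control TRAP RNA. Spr, Bcl2l2 and Derl2 lie on opposite sides of 0 in control total RNA and in at least 1 other readout.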

How the data were processed

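Poly(A) RNA of cultured macrophages was sequenced by the authors, who deposited TPM for 52636 genes, with total RNA and TRAP RNA kept apart. The submitters' processing notes list HISAT, DESeq2 and the build GRCm38. Their versions, the program behind the TPM and any use of strand were not given in the sources used here. Genes that overlap an antisense gene therefore cannot be separated from it. Library sums were 999629 to 999969 TPM, so read depth is unknown and no counting interval is given. The tables also hold 24 per-sample fold change columns, which were not used. Symbols and coordinates come from GENCODE M21 by Ensembl identifier (233 identifiers unmatched), and promoters from RefSeq on GRCm38.p6.

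The filter required 1 TPM or more in 3 of the 6 control total RNA libraries. Values were taken as log2(TPM + 1) and fitted with limma 3.58.1 in R 4.3.3 (files read with version 1.17.8 of data.table), with empirical Bayes, a mean-variance trend, the mouse as a block and an oxygen effect within each genotype, over the 12 libraries of a fraction (4 residual degrees of freedom, 6.71 with the prior). Count models were planned only for count tables. The same number in the labels was taken to mark the same mouse. Deviations from group means of the normoxic and hypoxic libraries with the same number correlated at 0.572 to 0.794. This shows that such libraries resemble each other, and cannot show that the number stands for a mouse. The labels do not say that cultures of a mouse were repeated, so n is the number of mice. On simulated data over 11710 genes, the control comparison recovered 75 of 100 genes with a simulated log2 difference of 1, 86 of 100 with one of 2, and called 5 unchanged genes. The genotype comparison gave 46, 71 and 8 for the same quantities. The simulated residuals were independent and normal, with each gene's fitted spread, and genes of low level were not among those changed. Many changed genes loosen the Benjamini-Hochberg threshold, so these recoveries need not hold for the real data, where few genes were called.

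The members, lists, tests and the use of the block were chosen with earlier results of these data known, including that the fit without the block makes 0 calls. Named are Arg1, Tfrc, Elavl1, all calls, the 12 higher and 12 lower genes of smallest p with a mean of at least 4 TPM, 3 of 3 mice in 1 direction and no overlap, members of each list by smallest p or defining role, and up to 4 genes of smallest p for genotype and for fraction. Of the genes selected in this way, 1 is not reported here, but stays in the fit and in all counts. The remaining glycolysis members, C5ar1, Sgsh, Malat1, Gys1, Gbe1, Chac1, Marco and Isg15, the defining-role members and the nucleolar, splicing and glycogen lists were chosen after their values were seen. Alternatives were the block, the libraries fitted, pseudocount, filter, scaling, trend and each mouse left out.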

Additional observations from a re-analysis of the deposited data

Results flagged for a closer look

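Of the named genes, 5 were lower in hypoxia in all 3 control mice and higher in all 3 labelled knockouts. Spr, Bcl2l2 and Slc25a39 were among the genes named for a small p of the genotype difference, and Pum2 had its smallest adjusted p. Opposite directions in these genes are therefore bound up with how they were chosen and are no separate finding. The share of all genes with this pattern was not counted. Spr had log2 differences of -1.63, -0.93 and -1.29 in controls and 0.34, 0.22 and 0.15 in labelled knockouts, a control minus knockout difference of -1.52 (limma adjusted p 0.304). For Bcl2l2 the values were -2.19, -1.46 and -2.53 against 0.86, 0.35 and 0.20, and the difference -2.53 (limma adjusted p 0.304). Those of Ndufv2 were -0.57, -0.25 and -0.16 against 0.35, 0.26 and 0.27, a difference of -0.623 (limma adjusted p 0.96). Slc25a39 had log2 differences of -0.23, -0.26 and -0.25 in controls and 0.69, 0.67 and 0.48 in labelled knockouts, a control minus knockout difference of -0.861 (limma adjusted p 0.267). For Pum2 the values were -0.19, -0.081 and -0.09 against 1.29, 1.35 and 1.24, and the difference -1.41 (limma adjusted p 0.0653). The difference itself was tested for each of these and did not pass. Groups of 3 were too small for a search for single outlying samples.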

How the results depend on the processing

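The 3 higher and 2 lower calls in control total RNA went to 0 and 0 with no replicate block, to 1 and 1 with only the 6 control libraries (C5ar1 and Tfrc), and to 1 higher call with no trend (Arg1, beside Tnf and Tfrc). The remaining scalings, pseudocounts and filters gave 2 or 3 calls in each direction, and quantile normalization added Id1. Leaving out each mouse in turn gave 0 to 4 higher and 0 to 2 lower calls, and without HET-97, HET-102 or HET-129 none of the 5 main calls was kept. Adjusted p without a control mouse ran to 0.144 for Arg1, Tfrc, Pgk1 and Tnf and to 0.284 for Bnip3. The genotype difference gave 1 call with no replicate block, 2 with a pseudocount of 0.1, 0 to 1 with each mouse left out and 0 otherwise. TRAP RNA and the fraction difference gave 0 calls under every alternative.

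List medians moved by more than their spread over mice for NF-kB genes with a pseudocount of 5 (-0.182) and for oxygen sensing after quantile normalization (0.0404, above 0). With a mouse left out they ran from -0.255 to -0.152 for NF-kB subunits and feedback inhibitors, -0.206 to -0.0301 for HuR and AU-rich element binding proteins, 0.0388 to 0.312 for arginine and alternative activation, -0.431 to -0.32 for integrated stress response, -0.32 to -0.101 for interferon-stimulated genes, -0.498 to -0.133 for cytokines and chemokines and -0.185 to 0.0477 for matrix remodelling and vascular genes. The median over all genes moved from -0.0318 to between -0.0407 and 0.00166.

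Directions turned for genes that were never called. With quantile normalization Mrc1 was at -0.00939, Gbe1 at 0.0477 and Elavl1 at 0.0381. With median-of-ratios rescaling Gbe1 was at 0.0240 and Elavl1 at 0.0209, and with a pseudocount of 5 Col1a1 at -0.0217. With a mouse left out, the values of genes whose sign turned ran from -0.00992 to 0.143 for Adgre1, -0.0708 to 0.204 for Cd68, -0.0900 to 0.143 for Col1a1, -0.432 to 0.0361 for Col1a2, -0.224 to 0.616 for Egr1, -0.491 to 0.231 for Elavl1, -0.345 to 0.0852 for Eno2, -0.0425 to 0.0491 for Gbe1, -0.756 to 0.0695 for Hspa5, -0.781 to 0.450 for Itgam, -0.232 to 0.0874 for Odc1 and -0.0265 to 0.0286 for Pfkp. The cause was not tested for any of these. With 3 mice and unknown depth, the precision rests on the spread between mice, and low genes are the least certain.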

Other observations

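C5ar1, the receptor for the complement fragment C5a, was chosen after its values were seen. In control total RNA it was at 92.7, 57.8 and 86.7 TPM at 20% oxygen and 499, 390.0 and 479 TPM at 1% oxygen, without overlap, but the fit over 12 libraries did not call it (2.53 ± 0.63, adjusted p 0.211). It was called with only the 6 control libraries (adjusted p 0.0281) and without mouse KO-301 (0.0102). In TRAP RNA of the same lysates it was at 378, 265 and 219 TPM at 20% oxygen and 25.9, 203 and 221 TPM at 1% oxygen. The labelled knockouts were at 73.4, 33.6 and 349 TPM at 20% oxygen and 67.3, 41.5 and 33.3 TPM at 1% oxygen in total RNA.

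Sgsh, a lysosomal sulfatase, was at 23.6, 0.49 and 0.14 TPM at 20% oxygen and 29.9, 26.6 and 19.3 TPM at 1% oxygen, near 0 in 2 normoxic libraries. In TRAP RNA of the same lysates it was at 12.3, 12.7 and 6.56 TPM at 20% oxygen and 18.5, 11.3 and 10.6 TPM at 1% oxygen. It was also chosen after its values were seen, and was called without mouse HET-97 (adjusted p 0.00779) but not with all mice (0.206). Of 5067 tested genes with a median of at least 20 TPM, 6 were listed at 0 in at least 1 of the 6 libraries.

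Malat1, a nuclear long noncoding RNA, was at 138, 195 and 751 TPM at 20% oxygen and 74.4, 77 and 455 TPM at 1% oxygen in control total RNA (-0.98 ± 0.13, adjusted p 0.0656). HET-129 had more of it under both conditions.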
